A study of Mus musculus with 2 samples.

Results

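The SR proteins are splicing factors with RNA recognition motifs at one end and a domain rich in arginine and serine dipeptides at the other. The genes described here are 10 members of the Srsf family, Srsf1, Srsf2, Srsf3, Srsf4, Srsf5, Srsf6, Srsf7, Srsf9, Srsf10 and Srsf11. They were given as a list of names and matched on gene identifiers, and they are 10 of the 43346 annotated genes measured. Srsf12, which carries the family name, is not among the 10 and had 2 counts in replicate 1 and 0 counts in replicate 2. Their transcripts number 67 of 103639. By the type GENCODE M21 gives them, 25 of the 67 are protein coding, 12 are targets of nonsense-mediated decay, 18 retain an intron and 12 are processed transcripts, which have no annotated reading frame.

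Poly(A) RNA of G1E cells, an immortalised mouse line labelled as a Gata1- erythroid progenitor, was sequenced as single-end reads. The labels give the line as male, postnatal and 0 day of age. There was 1 group of 2 libraries, labelled biological replicates 1 and 2 and drawn from the same biosample, and no other condition. The labels do not say whether separate cultures were grown for them, and their spread may therefore be technical only. GATA1 is a transcription factor of red cell maturation, and the labels do not say how its gene was altered. G1E is a single line, and the labels name neither a wild-type line nor a line with GATA1 restored.

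Replicate 1 held 31645051 expected counts, which estimate the reads of each gene, and replicate 2 held 56983558. Effective lengths imply 36 nt reads for replicate 1 and 55 nt reads for replicate 2. All 10 erythroid progenitor markers listed stood at 1 TPM or more in both libraries, against 0 of 8 markers of other blood cells and 0 of 5 of other tissues. In replicate 1 alone 2 of the 8, Cd3e at 1.68 and Itgam at 1.31 TPM, and 2 of the 5, Pecam1 at 1.14 and Snap25 at 1.08 TPM, passed 1 TPM, and in replicate 2 none did. TPM, a share of all transcripts, is a level per length, so it can be compared between genes. Values are given per library or as the mean ± SD over the 2 libraries.

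SR proteins bind exonic sequences and help the spliceosome choose splice sites, and several of them also carry mRNA out of the nucleus. Many SR genes control their own output: high protein levels favour the inclusion of a poison exon, an exon with an in-frame stop codon, or the splicing of an intron behind the stop codon. Both leave a stop codon upstream of a splice junction, and nonsense-mediated decay, a surveillance pathway in the cytoplasm, then degrades the RNA. A stop codon more than about 50 nt before the last junction is the usual mark of a target. In red cell precursors splicing is known to change widely during maturation, retention of introns included.

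The annotated poison exons of 3 members are printed here from their first base to the stop codon that ends the reading frame, because they hold the stop codons of the decay transcripts whose shares are given further on. Some other transcripts of the same genes contain part or all of these letters too, such as Srsf6-204, which retains the introns around the exon. They are from the GENCODE M21 transcripts of GRCm38, all on the plus strand, at chr17:29039454-29039487 for Srsf3, chr2:162932815-162932966 for Srsf6 and chr4:131884276-131884390 for Srsf4. The stop codon is in capitals.
Srsf3-201: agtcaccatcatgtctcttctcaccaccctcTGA
Srsf6-201: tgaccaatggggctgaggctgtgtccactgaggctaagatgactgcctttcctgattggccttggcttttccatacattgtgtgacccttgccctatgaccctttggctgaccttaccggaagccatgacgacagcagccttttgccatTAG
Srsf4-203: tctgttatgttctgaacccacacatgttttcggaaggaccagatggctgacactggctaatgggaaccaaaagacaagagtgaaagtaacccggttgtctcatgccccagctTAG

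The reading frame runs on for 34 nt into the exon of Srsf3, for 115 nt into that of Srsf4 and for 152 nt into that of Srsf6. The 2 transcripts of Srsf2 with the highest shares end their reading frame at the same codon and differ in the exon that follows. The 30 nt around the stop codon, read across the junction on the minus strand (chr11:116850951-116852039 for Srsf2-201 and chr11:116851741-116852039 for Srsf2-206, ranges that include the removed intron), show this difference after the letters they share. The stop codon is again in capitals.
Srsf2-201: gtttcttccTAAgaaaatgatgaatcggca
Srsf2-206: gtttcttccTAAgaaaatgctgcggtctcc

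All 10 genes were transcribed at high levels. Each was at 1 TPM or more in both libraries, as were 24.2% of all genes and 42.5% of protein-coding genes. Their median level was 153 TPM, against 23.5 TPM over the 9118 expressed protein-coding genes. Each of the 10 stood above at least 89.2% of protein-coding genes in replicate 1 and above at least 92.3% in replicate 2. Together the members came to 2060.7 TPM in replicate 1 and 2865.2 TPM in replicate 2, a mean of 2463.0 ± 568.8 (SD, n = 2). This was 0.244% of the TPM of protein-coding genes in replicate 1 and 0.381% in replicate 2.

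**Figure D1:**
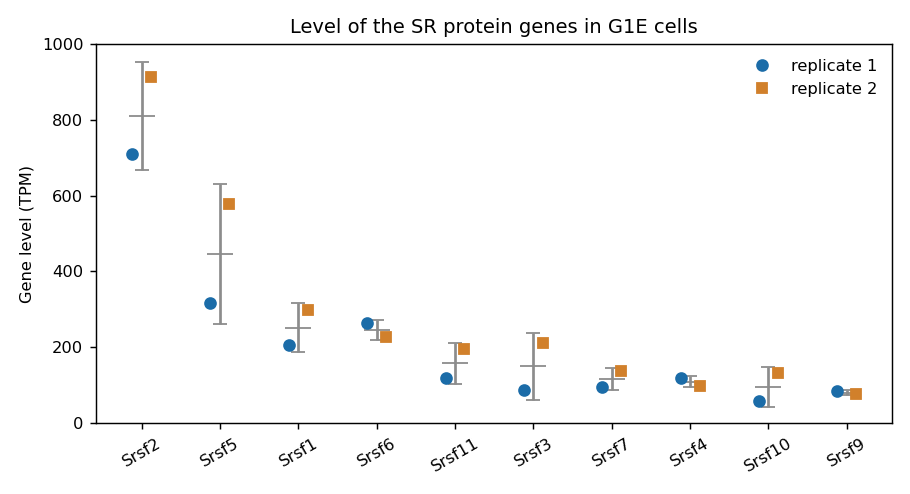
Level of each gene in TPM, in descending order of the mean. Circles are replicate 1 and squares replicate 2, and grey bars are the mean and SD of the 2 libraries. Srsf2 is highest in both libraries, and Srsf5 and Srsf2 show the widest gaps in TPM between the libraries.

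Srsf2 (ENSMUSG00000034120.14, chr11:116849901-116853094, minus strand) recognises exonic enhancers and is mutated in human myelodysplastic syndromes. It had 710.2 TPM in replicate 1 and 912 TPM in replicate 2, from 21708 and 55332 expected counts. It was the highest member in both libraries, with 34.5% of the summed TPM of the members in replicate 1 and 31.8% in replicate 2. Srsf1 (ENSMUSG00000018379.13, chr11:88047373-88053755, plus strand), the founding member of the family and a splicing activator, had 206 TPM in replicate 1 and 298 TPM in replicate 2. Srsf9 (ENSMUSG00000029538.9, chr5:115327177-115333080, plus strand), a close relative of Srsf1, had 85.01 TPM in replicate 1 and 75.9 TPM in replicate 2. It was the lowest member by mean, at 80.5 ± 6.44 TPM (SD, n = 2).

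Srsf4, Srsf5 and Srsf6 encode proteins with a pair of RNA recognition motifs. Srsf5 (ENSMUSG00000021134.13, chr12:80945504-80950507, plus strand) had 316 TPM in replicate 1 and 577 TPM in replicate 2. Srsf6 (ENSMUSG00000016921.10, chr2:162931528-162937121, plus strand) had 264 TPM in replicate 1 and 227 TPM in replicate 2. Srsf4 (ENSMUSG00000028911.12, chr4:131873617-131901706, plus strand) had 119 TPM in replicate 1 and 98.9 TPM in replicate 2. Srsf5 was thus ahead of Srsf6 and Srsf4 in both libraries, and its gap between libraries was the widest of the 3.

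Srsf3 and Srsf7 encode small SR proteins that shuttle between nucleus and cytoplasm and act as adaptors for mRNA export. Srsf3 (ENSMUSG00000071172.8, chr17:29032628-29043373, plus strand) had 87.0 TPM in replicate 1 and 212 TPM in replicate 2. Srsf7 (ENSMUSG00000024097.10, chr17:80200080-80207307, minus strand) had 95.03 TPM in replicate 1 and 137 TPM in replicate 2. Their order was opposite in the libraries, with Srsf7 ahead in replicate 1 and Srsf3 ahead in replicate 2.

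Srsf10 encodes an atypical SR protein that represses splicing when it is dephosphorylated, and Srsf11 an SR-related protein. Srsf10 (ENSMUSG00000028676.13, chr4:135855747-135869908, plus strand) had 58.7 TPM in replicate 1 and 133 TPM in replicate 2. Srsf11 (ENSMUSG00000055436.14, chr3:158010473-158036639, minus strand) had 119.7 TPM in replicate 1 and 195 TPM in replicate 2. Both were higher in replicate 2.

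By mean the order was Srsf2, Srsf5, Srsf1, Srsf6, Srsf11, Srsf3, Srsf7, Srsf4, Srsf10 and Srsf9. The SD of log2(TPM + 1) between libraries, pooled over 10469 expressed genes, was 0.63, which gives a 95% bound of 1.23 for a mean difference between members. None of the 9 pairs of neighbours in the order differed by more than this bound, so no step of the order stands out from the spread between libraries. Of all 45 pairs, 18 lay beyond it. Srsf2 was above every member but Srsf5 by more than the bound, Srsf5 was above 6 members, and Srsf1 and Srsf6 were each above Srsf10 and Srsf9. Among close relatives, Srsf1 exceeded Srsf9 by 1.61 ± 0.49 on the log2 scale, beyond the bound, and Srsf5 exceeded Srsf4 by 1.97 ± 0.80, also beyond it. The differences of Srsf6 over Srsf4, 1.17 ± 0.03, and of Srsf5 over Srsf6, 0.80 ± 0.77, were within it, as was that of Srsf3 over Srsf7, 0.25 ± 0.53 (SD, n = 2 for each).

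Reads of other genes could enter these levels where sequence is shared. Of the 36-mers in a member's transcripts, 40.6% also occur in another gene for Srsf4, 22.4% for Srsf2 and 18.1% for Srsf3. None do for Srsf6, Srsf9 and Srsf11, and the other members lie between 1.13% and 12.8%. For Srsf4 all of the shared sequence is that of Gm12992, on the opposite strand, which had 1.93 TPM in replicate 1 and 0.85 TPM in replicate 2. For Srsf2 the most is shared with Mettl23, a gene on the opposite strand, which had 30.3 TPM in replicate 1 and 31.1 TPM in replicate 2. Whether counting used strand is not given in what was used here, and reads of such overlapping pairs may be mixed. Srsf3 shares most with Gm12355, Srsf5 with Gm12966, Srsf7 with Gm18821 and Srsf10 with Gm5446.

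The libraries differed in the members' counts in 1 direction, which was also that of most genes with at least 50 counts. After TMM scaling, a correction for library size and composition, all 10 log2 ratios of replicate 2 over replicate 1 were above 0, at 0.03 for Srsf4, 0.30 for Srsf6, 0.62 for Srsf9, 0.70 for Srsf2 and 0.82 for Srsf7. Past a 2-fold ratio lay Srsf5 at 1.24, Srsf1 at 1.41, Srsf11 at 1.59, Srsf3 at 1.92 and Srsf10 at 2.00. These are 5 of 10 members, beside 32.5% of the 12414 genes with at least 50 counts. All 5 were higher in replicate 2, as were 22.3% of the genes, while 10.2% were 2-fold lower. The median ratio was 1.03 over the members and 0.28 over the genes with at least 50 counts. Most of those genes thus also lay above 0, and Srsf4 lay below their median. Their exact share above 0 is not given here. With 1 library against 1 no test was possible. The summed TPM of the 8 markers of other blood cells was 3.92 in replicate 1 and 1.27 in replicate 2, with Elane at 0 in both, and that of the 5 markers of other tissues was 2.91 in replicate 1 and 0.38 in replicate 2. The summed TPM of the 10 erythroid progenitor markers was also lower in replicate 2, at 3053 in replicate 1 and 1786 in replicate 2. By TPM 7 of these 10 markers were lower in replicate 2, and Lmo2, Epor and Tfrc were higher. Tfrc had 48.4 TPM in replicate 1 and 138.6 TPM in replicate 2. After TMM scaling Tal1 was higher in replicate 2 too, at a log2 ratio of 0.45. The part of these marker differences in the result was not tested. In such bulk RNA, fewer cells of a kind and less RNA per cell cannot be told apart.

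**Figure D2:**
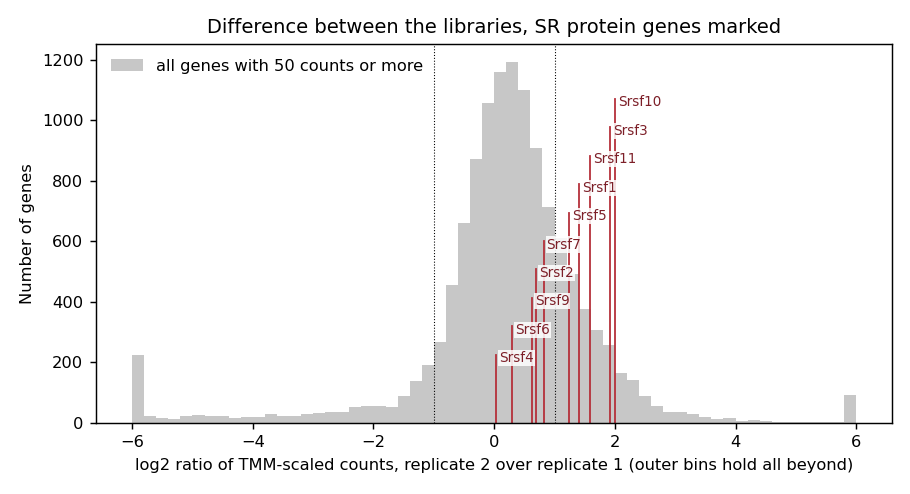
Histogram of the log2 ratio of TMM-scaled counts, replicate 2 over replicate 1, for 12414 genes, with values beyond the axis gathered in the outer bins. Red lines mark the SR genes at heights that only separate the names, and dotted lines mark a 2-fold ratio. All 10 lie above 0, as do most of the genes, and 5 lie beyond the upper line.

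On the TPM scale the difference was smaller. Of the 10 members 7 were higher in replicate 2 and 3 were lower, Srsf4, Srsf6 and Srsf9. Over 10469 expressed genes the median difference in log2(TPM + 1), replicate 2 minus replicate 1, was -0.03. Past 2-fold were Srsf3, at 2.43-fold, and Srsf10, at 2.27-fold, which is 2 of 10 members beside 30.9% of genes. The length of the transcripts to which reads were assigned moved with this. The TPM-weighted mean transcript length was greater in replicate 2 in 8 of the 9 members with more than 1 transcript, beside 61.0% of 6807 such genes. For Srsf1 it was 1237 nt in replicate 1 and 1842 nt in replicate 2, and for Srsf11 it was 1215 nt in replicate 1 and 1819.9 nt in replicate 2. For Srsf4 it was 2147 nt in replicate 1 and 2146 nt in replicate 2. Read length also differs between the libraries, and the part of either in the result was not tested.

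Most of the RNA of these genes was assigned to transcripts typed as protein coding, but in 3 genes most of it went elsewhere. Over all members, protein-coding transcripts held 66.0% ± 2.09 of the TPM, decay targets 15.3% ± 4.12, transcripts with a retained intron 11.4% ± 1.40 and processed transcripts 7.44% ± 0.64 (SD, n = 2). The sum leans on Srsf2, without which the protein-coding share is 54.7%. Over 50% of the TPM lay outside the protein-coding type in both libraries for Srsf6, Srsf10 and Srsf11, 3 of the 9 members with such a transcript, beside 14.6% of 5552 expressed protein-coding genes. In replicate 1 alone Srsf3 and Srsf9 joined them, making 5 of 9 beside 26.4%, and in replicate 2 alone the same 3 were past 50%, beside 18.4%. The median share outside the type, as the mean of the libraries, was 33.6% over the 9 members and 20.9% over the 5552 genes.

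**Figure D3:**
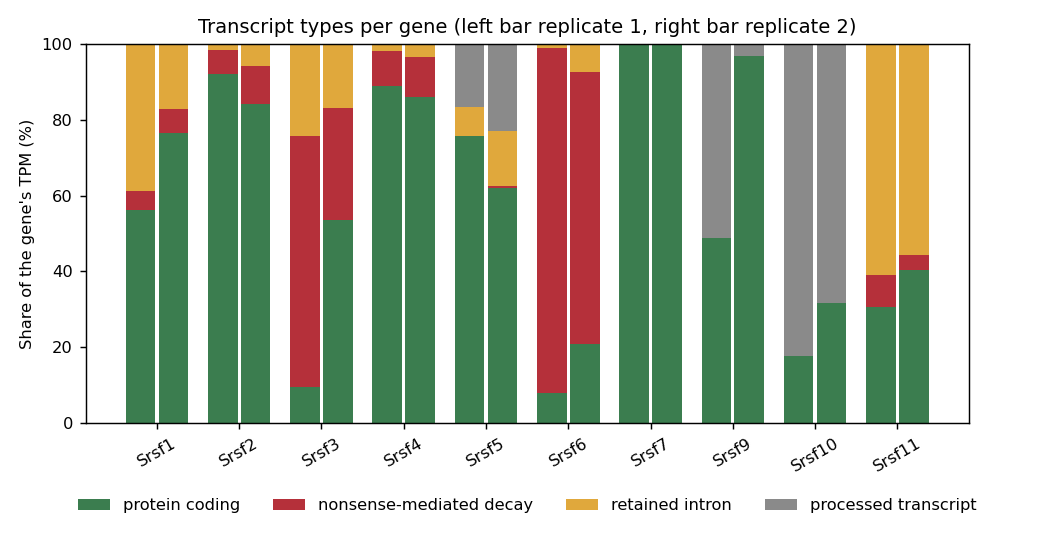
Share of each gene's TPM, in percent, by annotated transcript type, with replicate 1 as the left bar and replicate 2 as the right bar. Srsf6 is mostly decay target (red) in both libraries, Srsf10 mostly processed transcript (grey) and Srsf11 mostly retained intron (yellow), while Srsf3 and Srsf9 change with the library.

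Short transcripts gain in this measure, since TPM divides reads by length. By share of expected counts, Srsf6 remained the member with over 50% outside the protein-coding type in both libraries, 1 of 9 beside 7.84% of the 5552 genes. Protein-coding transcripts of Srsf10 held 56.1% of its counts in replicate 1 and 73.8% in replicate 2, and those of Srsf11 held 52.6% and 58.5%. Those of Srsf6 held 15.7% in replicate 1 and 34.5% in replicate 2.

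**Figure D4:**
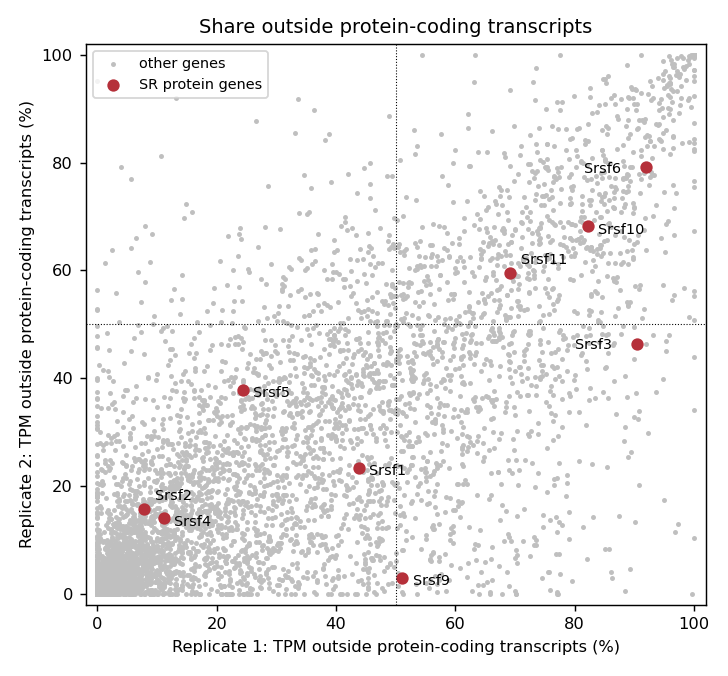
Share of a gene's TPM outside protein-coding transcripts, in percent, in replicate 1 (horizontal) and replicate 2 (vertical), for 5552 expressed protein-coding genes with such a transcript. The 9 SR genes are in red and dotted lines mark 50%; Srsf6, Srsf10 and Srsf11 lie past both lines, and Srsf3 and Srsf9 past the line of replicate 1.

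Srsf6 was the member with the largest share in a decay target. Srsf6-201, the transcript with the poison exon printed above, held 90.9% of the gene's TPM in replicate 1 and 71.9% in replicate 2, a mean of 81.4% ± 13.4 (SD, n = 2). That is 240.4 TPM from 9157 expected counts in replicate 1 and 163 TPM from 11931 in replicate 2. Its exon 3 of 7, chr2:162932815-162933082, is 268 nt long and puts the stop codon 534 nt before the last junction. The protein-coding Srsf6-203, which skips that exon, held 8.08% of the TPM in replicate 1 and 20.7% in replicate 2, from 1743 and 7397 counts. Srsf6-204, which retains the introns on both sides of the exon, held 1.02% in replicate 1 and 7.27% in replicate 2. Over 50% of the TPM in decay targets in both libraries was seen in 1 of the 7 members with such a transcript, beside 6.21% of 1982 genes. The median share in decay targets, as the mean of the libraries, was 8.05% over these 7 members and 8.63% over the 1982 genes.

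The models of Srsf6 differ at the 3' end too. Srsf6-203 runs 2095 nt further downstream than Srsf6-201, and 1945 of its 36-mers occur in no other transcript of the gene, against 33 for Srsf6-201. Srsf6-203 is the only listed Srsf6 transcript whose exons are joined without the poison exon. A transcript without the exon and with the shorter end therefore has no entry of its own, and how reads of such an RNA would have been divided was not tested.

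Srsf3-201, the decay target of Srsf3, held 66.1% of the gene's TPM in replicate 1 and 29.5% in replicate 2. Its level was closer than its share: replicate 1 gave 57.6 TPM and replicate 2 gave 62.4 TPM. The protein-coding Srsf3-202 had 8.29 TPM from 490 counts in replicate 1 and 113 TPM from 12913 counts in replicate 2, so the leading transcript differed between the libraries. The poison exon of Srsf3-201 is exon 4 of 7, chr17:29039454-29039909, 456 nt long, with the stop codon 548 nt before the last junction. Srsf3-203, which retains an intron, held 20.1% in replicate 1 and is listed at 0 in replicate 2. It has no 36-mer of its own within the gene, and its deposited interval in replicate 2 reaches 2.44 TPM. The quantified models of Srsf3-201 and Srsf3-202 are 1919 and 2566 nt long, against 2594 and 2618 nt in GENCODE M21, from which the exons are taken.

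**Figure D5:**
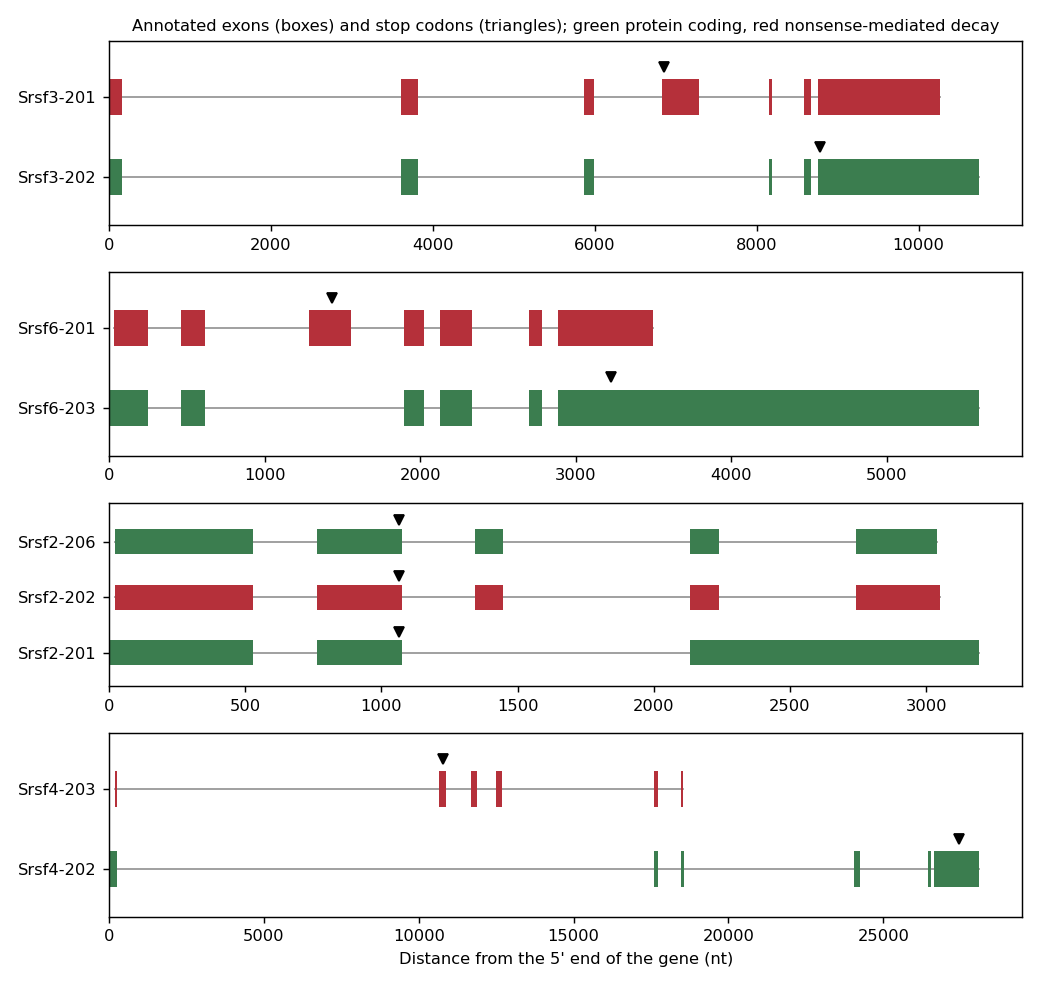
Annotated exons (boxes) and stop codons (triangles) of transcripts of Srsf3, Srsf6, Srsf2 and Srsf4, by distance in nt from the 5' end of the gene. Green is protein coding and red a target of nonsense-mediated decay; the stop codon of Srsf3-201, Srsf6-201 and Srsf4-203 lies in an exon that the protein-coding transcript lacks, and Srsf2-206 and Srsf2-202 differ only in the 3' end of the last exon but have different types.

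In Srsf2 the type of the leading transcript is open to doubt. Srsf2-206, typed as protein coding, held 82.7% of the TPM in replicate 1 and 65.6% in replicate 2. Srsf2-202, typed as a decay target, contains all 1326 nt of Srsf2-206 and 10 nt more at the 3' end, and it held 0% and 0.01%. In the posterior means that were deposited beside the point estimates, the same pair was split differently, with 97.1 TPM for Srsf2-202 and 466 TPM for Srsf2-206 in replicate 1. In replicate 2 the posterior means were 176 TPM for Srsf2-202 and 398 TPM for Srsf2-206. The deposited interval of Srsf2-202 ran from 4.21 to 283 TPM in replicate 1 and from 34.8 to 485 TPM in replicate 2, so their shares cannot be told apart. Both end their reading frame 217 nt before the last junction. In Srsf2-201, the other protein-coding transcript printed above, the distance is 7 nt, and it held 9.50% in replicate 1 and 18.7% in replicate 2.

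Counted by that distance, the shares look different. Transcripts with the stop codon more than 50 nt before the last junction, 13 of the 67, held 46.7% of the summed TPM of the members in replicate 1 and 33.2% in replicate 2. For Srsf2 they held 89.0% in replicate 1 and 75.4% in replicate 2. With such transcripts set beside those outside the protein-coding type, 4 of 9 members passed 50% in both libraries, Srsf2 being the one added, beside 15.0% of 5592 genes. This rule was added after the values had been seen. Srsf2-204, the decay target of Srsf2 with the highest share by point estimates, held 6.28% in replicate 1 and 9.81% in replicate 2. By posterior shares it held 6.16% and 9.66%, below Srsf2-202 at 14.3% in replicate 1 and 20.1% in replicate 2. Srsf2-203, with a retained intron, held 1.54% in replicate 1 and 5.87% in replicate 2 by point estimates.

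Of the 9 members with more than 1 transcript, Srsf4 had the isoform shares that moved least between the libraries. The protein-coding Srsf4-202 held 88.9% of its TPM in replicate 1 and 86.0% in replicate 2. Srsf4-203 held 6.23% in replicate 1 and 5.11% in replicate 2. It includes 3 exons that Srsf4-202 lacks, at chr4:131884276-131884482 (207 nt), chr4:131885309-131885492 (184 nt) and chr4:131886107-131886304 (198 nt), and the stop codon in the first lies 617 nt before its last junction. Srsf4-201, with a retained intron, held 1.89% in replicate 1 and 3.55% in replicate 2.

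Srsf1 was led by the protein-coding Srsf1-202 in both libraries, at 44.9% of TPM in replicate 1 and 39.7% in replicate 2. Srsf1-201, a longer protein-coding transcript, held 9.03% in replicate 1 and 32.2% in replicate 2. The retained-intron transcript Srsf1-206 held 29.9% in replicate 1 and 17.3% in replicate 2. The decay target Srsf1-204, with its stop codon 80 nt before the last junction, held 5.11% and 5.28%, close in both libraries. Its relative Srsf9 has no listed decay target. Srsf9-201, protein coding, held 49.0% in replicate 1 and 96.1% in replicate 2, and the processed transcript Srsf9-202 held 49.7% and 1.72%. Srsf9-202 is 474 nt long as quantified and 1237 nt long in GENCODE M21.

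Srsf5 was spread over more transcripts. Srsf5-203, protein coding, led in replicate 1 with 40.6% of TPM and held 15.8% in replicate 2. Srsf5-205, also protein coding, held 0.96% in replicate 1 and led in replicate 2 with 21.2%. The retained-intron transcript Srsf5-212 held 6.95% in replicate 1 and 14.1% in replicate 2, and the decay target Srsf5-208 held 0.14% and 0.31%. The protein-coding types of Srsf5 together held 75.7% in replicate 1 and 62.1% in replicate 2.

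Srsf10 has no listed transcript typed as a decay target or as retaining an intron. The processed transcript Srsf10-209, of 394 nt, held 42.2% of TPM in replicate 1 and 27.8% in replicate 2, from 208 and 570 counts. Another processed transcript, Srsf10-207, of 717 nt, held 34.2% in replicate 1 and 30.6% in replicate 2. The protein-coding types together held 17.8% in replicate 1 and 31.8% in replicate 2. In Srsf11, retained-intron transcripts held 60.9% of TPM in replicate 1 and 55.6% in replicate 2. The one with the highest mean share, Srsf11-207, held 52.7% in replicate 1 and 25.9% in replicate 2, and it is 813 nt long as quantified against 1670 nt in GENCODE M21. The protein-coding Srsf11-202 held 19.1% in replicate 1 and 36.5% in replicate 2, and the decay target Srsf11-212 held 3.39% and 2.77%. For Srsf7 only Srsf7-201 of its 8 transcripts in GENCODE M21 was quantified, so its share of 100% says nothing about its isoforms.

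The libraries often differed in single transcripts. The libraries shared their leading transcript in 4 of 9 members, Srsf1, Srsf2, Srsf4 and Srsf6, beside 69.3% of 6807 genes with more than 1 transcript. The share of TPM that would have to move between transcripts to turn one library's split into the other's was 26.6 percentage points at the median of the members and 21.4 over those genes. It was highest in Srsf3, at 56.8 points, and lowest in Srsf4, at 4.07 points. By their sequences in GENCODE M21, 17 of the 67 transcripts contain no 36-mer that is theirs alone within the gene. Srsf2-206, Srsf5-203 and Srsf10-209 are among these. At 55 nt, the read length implied for replicate 2, Srsf10-209 has 3 stretches of its own and Srsf3-205 has 11. Srsf10-202 and Srsf10-203 have 2 each.

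Genes that act on or with SR proteins were also transcribed, from lists chosen for their function. Of the kinases and phosphatases that set the phosphorylation of the arginine and serine domain, 10 of 11 passed 1 TPM in each library, and the list median was 34.02 TPM. Ppp1ca, a catalytic subunit of protein phosphatase 1, was highest at 353 ± 19.4 TPM, ahead of Srpk1, a kinase that prepares SR proteins for nuclear import, at 94.4 ± 13.4 TPM, and Clk2, a nuclear kinase, at 89.4 ± 24.2 TPM (SD, n = 2 for each). Srpk3, a kinase of muscle, had 0.13 TPM in replicate 1 and 0.19 TPM in replicate 2. Between the libraries 4 of 10 were 2-fold apart, beside 32.5% of the 12414 genes with at least 50 counts.

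Of the SR-like and SR-related proteins 17 of 18 passed 1 TPM in each library, and the list median was 105 TPM in replicate 1 and 95.8 TPM in replicate 2. Srrm1 and Srrm2, the large coactivators of splicing, led at 766 ± 578 TPM and 708 ± 342 TPM, and U2af2, which binds the polypyrimidine tract, followed at 339.6 ± 16.6 TPM (SD, n = 2 for each). Srsf12, a relative of Srsf10, had 0.03 TPM in replicate 1, from 2 counts, and 0 counts in replicate 2. Between the libraries 3 of 17 were 2-fold apart, beside the same 32.5%.

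Of the genes of nonsense-mediated decay and the exon junction complex, which marks spliced junctions, 15 of 16 passed, with a median of 43.6 TPM. Eif4a3, the helicase of the complex, stood at 448 ± 147 TPM, Smg5, a decay factor, at 94.4 ± 4.87 TPM and Magoh, a core subunit, at 80.2 ± 56.9 TPM (SD, n = 2 for each). Magohb, its paralog, had 0.35 TPM in replicate 1 and 0.13 TPM in replicate 2. Magoh was the 1 gene of 15 that was 2-fold apart, beside 32.5% of the 12414 genes. All 8 import and export partners passed, with a median of 65.1 TPM and 3 of 8 apart, again beside 32.5%. The helicase Ddx39b led at 376 ± 23.5 TPM, with the export adaptor Alyref at 302 ± 3.27 TPM and the export receptor Nxf1 at 282 ± 96.9 TPM (SD, n = 2 for each).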

How the data were processed

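Expected counts were deposited unnormalised, per the file headers, in a gene and a transcript table for each library. TPM values, per the file headers, are counts over effective length, deposited on the same total in each library. The deposited signal columns hold posterior means on the TPM scale and interval bounds, whose level is not stated. The deposited percent column splits the TPM of a gene over its transcripts. The deposited notes name mm10 and gene annotation release M4. For aligner, quantifier and use of strand, names and versions were not given in the sources used here.

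Names, types and exons came from GENCODE M21 (GRCm38, which is mm10), joined by identifiers without version: 42462 genes matched and 884 did not. Of the members' 67 transcripts 58 have the same length in both releases, and GENCODE M21 lists 85. Entries naming no gene, with 0.0363% of counts in replicate 1 and 0.00942% in replicate 2, were left out. Expected counts were rounded and scaled with edgeR 4.0.16 (TMM) in R 4.3.3, or with DESeq2 1.42.0 size factors as an alternative. Ratios had 0.5 added to each count, and levels were compared as log2(TPM + 1). Python 3.11.15 with numpy 2.4.6, pandas 2.3.3 and matplotlib 3.10.9 did the rest. The TMM ratios were tested on simulated gene counts into which known changes had been put. These changes fell on a small random set of genes, up or down at random, with no difference in read length. In the deposited libraries 32.5% of genes with at least 50 counts were 2-fold apart. The simulation therefore does not show how well the scaling did on them. The other steps were not tested on simulated data.

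There was 1 group of 2 libraries, so no p-value was computed. Calls are counts beside the share of all genes past the same threshold, and errors are SDs between the libraries. The members and lists were chosen with earlier results of these data known. Named were all 10 members, of each the leading transcript and the highest decay target and retained-intron transcript, and of each list the 3 highest genes and those under 1 TPM in both libraries. Other transcripts were named after their values were seen.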

Additional observations from a re-analysis of the deposited data

How the results depend on the processing

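All 10 members stayed at 1 TPM or more under each of the 5 alternatives tried. Rescaled over protein-coding genes, the summed level was 3128 TPM in place of 2463.0. Members 2-fold apart numbered 5 with TMM (beside 32.5% of genes), 5 with DESeq2 size factors (32.3%) and 5 with no count minimum (43.0%). They numbered 2 by TPM (30.9%), 3 by rescaled TPM (31.1%) and 8 at 1.5-fold (52.3%). Members with over 50% of TPM outside the protein-coding type numbered 3 (beside 14.6% of genes). They numbered 1 by expected counts (7.84%), 3 without replicate 1 (18.4%) and 5 without replicate 2 (26.4%). When protein-coding types were set against decay targets alone they numbered 1, and no share over all genes was computed for that setting. The protein-coding share of 66.0% became 60.3% with posterior means, 72.2% by expected counts, 54.7% without Srsf2, the highest member, and 41.3% when transcripts with a stop codon more than 50 nt before the last junction were set apart, an alternative chosen after seeing the data. The cause of these changes was not tested, beyond what each measure counts. Members with the same leading transcript numbered 4 (beside 69.3% of genes with more than 1 transcript), 4 with posterior shares and 6 by expected counts. No share over all genes was computed for posterior shares or for expected counts. No paired analysis was possible because there is 1 group. In replicate 1 no read can belong to 1 of the 17 transcripts with no 36-mer of their own alone, at any depth. In replicate 2, with longer reads, this holds for those of the 17 that have no 55-mer of their own either. Their shares were not all equally uncertain. In replicate 1 the deposited interval of Srsf2-202 ran from 4.21 to 283 TPM, and that of Srsf5-212 from 19.0 to 22.8 TPM.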

Other observations

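Some genes of the lists above, most often SR kinases, also had most of their TPM outside the protein-coding type. Short transcripts gain in this measure, and shares of expected counts are not given for these genes. Of the SR kinases and phosphatases with such a transcript, 4 of 6 passed 50% in both libraries, beside 14.6% of the 5552 expressed protein-coding genes that have one. They were Clk2 at 86.6% in replicate 1 and 71.5% in replicate 2, Clk1 at 77.6% and 89.8%, Clk4 at 88.8% and 63.6%, and Srpk1 at 64.8% and 52.2%. The Clk kinases phosphorylate SR proteins in the nucleus. Of the SR-like and SR-related proteins 2 of 8 passed, Srrm2 at 79.3% in replicate 1 and 72.3% in replicate 2 and Srrm1 at 60.9% and 50.04%. Of the import and export partners 1 of 5 passed, Alyref at 95.9% in replicate 1 and 94.8% in replicate 2. Of the genes of nonsense-mediated decay and the exon junction complex 0 of 11 passed. The same 14.6% stands beside each of these lists. Clk1, Clk4, Srrm1, Srrm2, Srpk1, Clk2 and Alyref are given here after their shares were seen.

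Tra2b, an SR-like splicing activator with a known poison exon, had the widest gap between the libraries among these lists, with 79.0% of TPM outside the protein-coding type in replicate 1 and 15.3% in replicate 2.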
